A study of Mus musculus with 6 samples.

Results

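The metallothioneins Mt1 and Mt2, their regulator Mtf1 and 7 zinc transporters were described in iWAT, the inguinal white fat that lies under the skin, of mice on a high-fat diet. These 10 genes were listed by name and found in the deposited table by gene identifier, and all 10 were among its 15176 genes. The Steap4f/f group, with 4 libraries (replicates 1, 2, 5 and 6), carries loxP-flanked Steap4 and is the control. The Steap4AKO group, with 2 libraries (replicates 2 and 3), lacks Steap4 in adipocytes, per the study's title. All 6 libraries came from mice fed the high-fat diet; their age and sex, the length of feeding and the Cre driver are not given in these sources. No label says whether each library is a separate mouse, so the spread behind each p-value is that between samples and may be technical.

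Metallothioneins are small proteins rich in cysteine that bind zinc and copper. Free zinc in the cell activates MTF1, a zinc finger transcription factor that binds metal response elements (MREs) and raises Mt1, Mt2 and the zinc exporter gene Slc30a1. Glucocorticoids and interleukin-6 also raise metallothioneins in mice. Zinc enters the cytosol through ZIP proteins, encoded by Slc39 genes, and leaves it through ZnT proteins, encoded by Slc30 genes. STEAP4 reduces iron and copper at membranes, and the study asked what its loss in adipocytes does to mitochondria in fat.

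The starts of Mt1, Mt2 and Slc30a1, the textbook MTF1 targets, are shown to let the MRE letters be seen beside the values below. Each window is 300 bases of RefSeq sequence on the plus strand of GRCm38.p6, 5′ to 3′, with 250 bases before the annotated start and 50 after it. They are chr8:94178839-94179138 for Mt1, chr8:94172368-94172667 for Mt2 and chr1:191906531-191906830 for Slc30a1. Capitals mark the MRE core, searched as TGCACNC and TGCGCNC on both strands.
Mt1: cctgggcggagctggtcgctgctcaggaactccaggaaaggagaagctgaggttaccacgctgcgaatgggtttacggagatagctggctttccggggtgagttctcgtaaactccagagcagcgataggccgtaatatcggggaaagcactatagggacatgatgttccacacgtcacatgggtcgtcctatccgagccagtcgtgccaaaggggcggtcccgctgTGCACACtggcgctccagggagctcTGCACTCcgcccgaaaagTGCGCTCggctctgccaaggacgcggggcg
Mt2: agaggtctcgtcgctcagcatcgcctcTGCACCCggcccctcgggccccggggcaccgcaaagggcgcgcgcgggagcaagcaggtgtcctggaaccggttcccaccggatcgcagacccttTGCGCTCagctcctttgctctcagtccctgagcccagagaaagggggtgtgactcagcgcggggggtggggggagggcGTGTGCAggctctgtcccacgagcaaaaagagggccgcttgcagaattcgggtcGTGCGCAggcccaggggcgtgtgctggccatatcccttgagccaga
Slc30a1: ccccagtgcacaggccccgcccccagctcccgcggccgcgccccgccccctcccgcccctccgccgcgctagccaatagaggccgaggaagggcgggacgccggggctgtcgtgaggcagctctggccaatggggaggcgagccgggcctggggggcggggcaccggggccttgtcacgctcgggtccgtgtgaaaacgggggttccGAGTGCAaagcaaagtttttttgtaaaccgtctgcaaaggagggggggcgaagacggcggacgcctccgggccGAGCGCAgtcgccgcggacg

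The core occurred 3 times in the Mt1 window, 4 times in that of Mt2 and 2 times in that of Slc30a1. Of 32851 RefSeq windows of this length, 25.7% held the core at least once, 1.97% held it 3 or more times and 0.52% held it 4 or more times. RefSeq windows matched 9 of the 10 members, with 11 windows in all, and 6 of these members had at least 1 core. Slc30a4 had 3, and Slc39a13 and Slc39a8 had 1 each. Mtf1, Slc39a1 and Slc39a10 had none in their windows. The antioxidant response core TGACNNNGC, also searched on both strands, was in windows of 5 members, Mt2, Slc30a1, Slc39a1, Slc39a13 and Slc39a8, and in 12.4% of all windows. In Mt2 it did not overlap an MRE core. For Mt1, GENCODE M21 places 1 transcript start at base 94179082 and 2 others at 94179211 and 94179241, past the end of the window. For Mt2 it places 1 start at 94172664, just before the window ends at 94172667, and 1 at 94172860, past that end. Both Mt2 starts lie later than the RefSeq start on which the window was built. Stretches past the end of each window, closer to the later starts, were thus not searched. A match describes letters and not a bound site.

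The targeted gene, Steap4 (chromosome 5, 7960457 to 7982213), had normalized counts of 17018, 9417, 8310 and 8851 in the controls and of 8313 and 8014 in Steap4AKO. The groups overlapped and the log2 difference was -0.35 (SE 0.29, limma adjusted p = 0.544), so whole tissue RNA did not check the genotype labels. Deposited values summed to between 16573561 and 20547925 per library, and the depth in reads is unknown. Markers of adipocytes, the cells that the tissue label names, were abundant in every library, with Adipoq between 21862 and 43018. Steap4AKO replicate 2 stood apart, with 963 of 15006 tested genes (6.42%) at over 2-fold the level of each other library, against 19 to 144 genes in the others. Its summed macrophage markers were 22516 against 6531 to 7131 in the other 5 libraries, and its adipocyte markers 296798 against 423009 to 484617. Of the adipocyte markers, Lep went the other way, at 55201.6 there against 8106.1 to 43433.5, and Cidec lay inside the range of the others. Mesothelial markers summed to 1244 there and to at most 258.1 elsewhere, and epithelial markers to 1986 and at most 75.1. Skeletal muscle markers summed to 2029 and 12305 in Steap4AKO and to between 105714 and 560189 in Steap4f/f. Steap4f/f replicate 1 had the lowest muscle markers of its group, at 105714 against 354822 or more.

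None of the 10 members had a limma adjusted p under 0.05, against 0.473% of all genes tested. At an unadjusted p under 0.05, 1 member passed, Mtf1, against 18.1% of all genes tested. The log2 difference was positive for 8 members (background 52.2%) and negative for 2, with a median of 0.19 beside 0.02 over all genes. This median was -0.12 without Steap4AKO replicate 2, 0.49 without Steap4AKO replicate 3 and 0.47 without Steap4f/f replicate 1. In 3 members both Steap4AKO libraries lay above every Steap4f/f library (background 14.1%), and in 1 both lay below (background 14.4%). Each log2 difference is the Steap4AKO minus the Steap4f/f mean of log2(normalized count + 1), which understates changes of low genes, and whole tissue RNA does not tell fewer cells of a type from less RNA per cell.

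**Figure D1:**
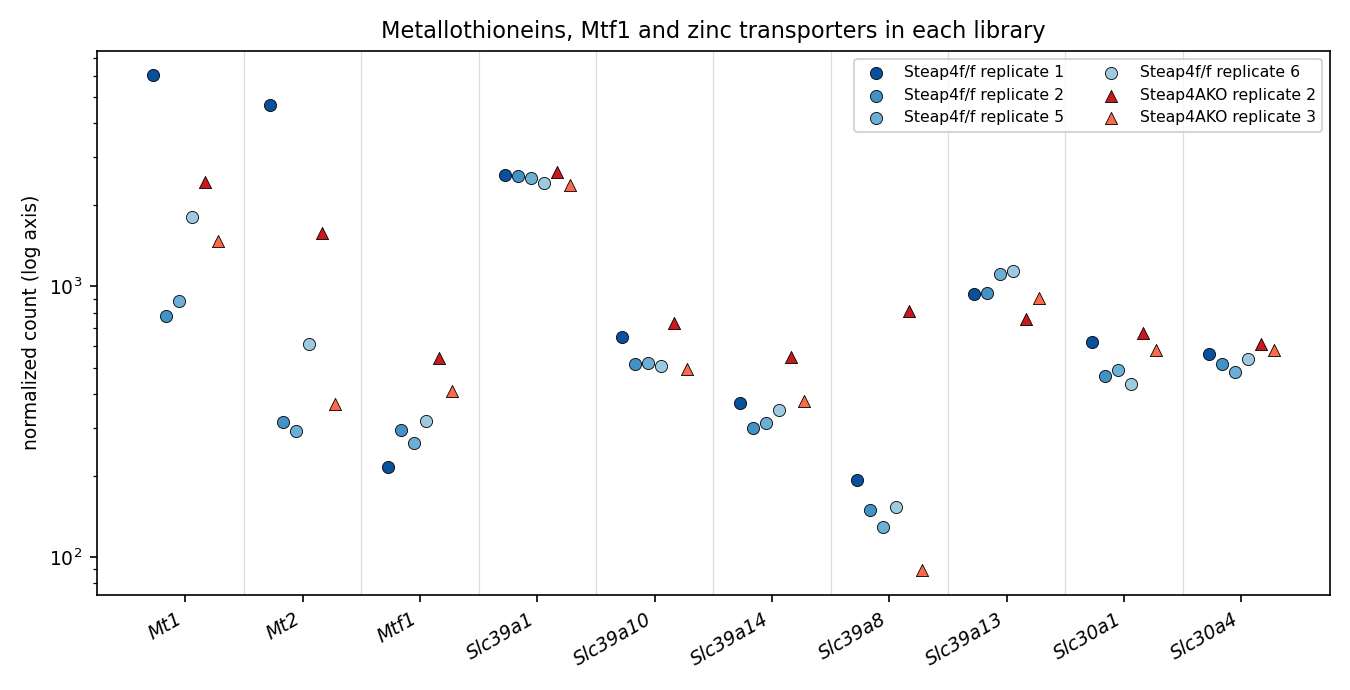
Normalized count (log axis) of the 10 genes in each of the 6 libraries, circles for Steap4f/f and triangles for Steap4AKO, with no averaging. Mt1 and Mt2 are highest in Steap4f/f replicate 1 (6016 and 4683), while Slc39a8 is highest in Steap4AKO replicate 2 (808.3) and Slc39a1 lies between 2364 and 2655 throughout.

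For Mt1 and Mt2 the spread within the control group exceeded the difference between genotypes. Mt1 (ENSMUSG00000031765, chromosome 8, 94179082 to 94180327) had 6016, 779.4, 881.2 and 1803 in control replicates 1, 2, 5 and 6 and 2432 and 1471 in Steap4AKO replicates 2 and 3. Both Steap4AKO values fell inside the Steap4f/f range, which spanned 7.72-fold. The control mean was 2370 ± 2474 (SD, n = 4) and the Steap4AKO mean 1951 ± 679.5 (SD, n = 2), with a log2 difference of 0.19 (SE 0.75, limma adjusted p = 0.909). The arithmetic means and the log2 difference thus have opposite signs, since 1 high control library weighs more on the linear scale.

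Mt2 (ENSMUSG00000031762, chromosome 8, 94172664 to 94173568) lies 5513 bases before Mt1 on the same strand. It had 4683, 316.4, 291.1 and 611.8 in the controls and 1579 and 368.2 in Steap4AKO. The control libraries spanned 16.1-fold, and the Steap4AKO libraries were again inside that span. The mean was 1476 ± 2143 (SD, n = 4) against 973.7 ± 856.3 (SD, n = 2), with a log2 difference of 0.09 (SE 1.11, limma adjusted p = 0.975). The order of the libraries was nearly shared by both genes, with Steap4f/f replicate 1 highest and Steap4AKO replicate 2 next. Mt1 exceeded Mt2 in every library, by 1.28-fold in Steap4f/f replicate 1, 1.54-fold in Steap4AKO replicate 2 and 2.46- to 3.99-fold in the other 4. The ratio was thus lowest in the 2 libraries with the most metallothionein.

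The direction of both genes rested on single libraries. Leaving out Steap4f/f replicate 1 gave log2 differences of 0.82 for Mt1 and 0.99 for Mt2, and without Steap4AKO replicate 2 it was -0.17 and -0.96. It was also negative without Steap4f/f replicate 2, at -0.17 and -0.30, and without Steap4f/f replicate 5, at -0.11 and -0.34. Steap4f/f replicate 1 was also the library with the highest Steap4 value, 17018 against at most 9417 in the other 5.

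**Figure D2:**
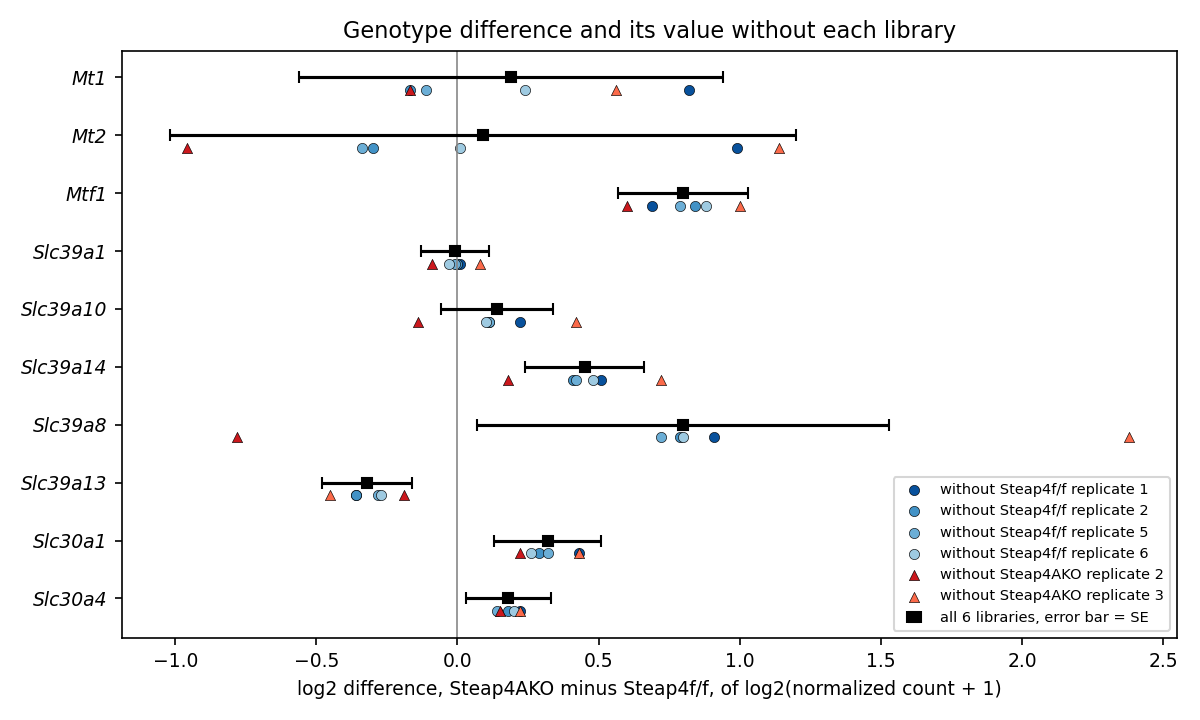
Log2 difference of Steap4AKO minus Steap4f/f for each gene (black squares, error bars are the SE from limma over 6 libraries), with the value after leaving out each library below it. Slc39a8 moves from -0.78 without Steap4AKO replicate 2 to 2.38 without Steap4AKO replicate 3, and Mtf1 stays between 0.60 and 1.00.

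Mtf1, the zinc sensing regulator (ENSMUSG00000028890, chromosome 4, 124802104 to 124849800), had 214.3, 293.6, 264.3 and 319.1 in the controls and 542.4 and 409.4 in Steap4AKO. Both Steap4AKO libraries were above all 4 controls. The mean was 1.74-fold higher, 475.9 ± 94.0 (SD, n = 2) against 272.8 ± 45.0 (SD, n = 4), with a log2 difference of 0.80 (SE 0.23, unadjusted p = 0.00797). It did not pass over all genes (limma adjusted p = 0.151), and an exact two-sided permutation test over the 6 libraries gave p = 0.0667, the smallest that 15 splits allow. The library with the highest metallothioneins, Steap4f/f replicate 1, had the lowest Mtf1. Exons of Mtf1 overlap 1110065P20Rik on the opposite strand over 721 bases of transcript, and that gene had lower values in both Steap4AKO libraries, 219.7 and 279.1 against 293.9 to 389.9 (log2 difference -0.51, limma adjusted p = 0.25). Whether the counting used strand was not stated, so reads of these overlapping exons may be divided between both genes.

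Among the importers of the plasma membrane, Slc39a1, which encodes the widely expressed ZIP1 (chromosome 3, 90248172 to 90253612), had the narrowest relative range over the 6 libraries of the 10 members. It had 2586, 2569, 2508 and 2410 in the controls and 2655 and 2364 in Steap4AKO. The control values lay inside the interval spanned by the Steap4AKO libraries, and the log2 difference was -0.01 (SE 0.12, limma adjusted p = 0.983). Its transcript is 97.7% identical to the pseudogene Slc39a1-ps over 973 bases, so its level is uncertain to that extent. Slc39a10, encoding the importer ZIP10 (chromosome 1, 46807544 to 46892852), had 649.5, 517.9, 522.2 and 510.3 in the controls and 730.1 and 495.2 in Steap4AKO. The groups overlapped (log2 difference 0.14, SE 0.20, limma adjusted p = 0.75), and it was -0.14 without Steap4AKO replicate 2.

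Slc39a14 encodes ZIP14, which carries zinc, iron and manganese and is induced by interleukin-6 in mouse liver (chromosome 14, 70303469 to 70351425). It had 371.6, 299.9, 312.2 and 349.1 in the controls and 549.3 and 377.1 in Steap4AKO. Both Steap4AKO libraries were above the controls, replicate 3 only just, by 377.1 against 371.6. The mean was 1.39-fold higher, 463.2 ± 121.8 (SD, n = 2) against 333.2 ± 33.0 (SD, n = 4), with a log2 difference of 0.45 (SE 0.21, limma adjusted p = 0.30). Without Steap4AKO replicate 2 the log2 difference was 0.18, and without Steap4AKO replicate 3 it was 0.72.

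Slc39a8 encodes ZIP8, a close relative of ZIP14 that carries zinc, manganese and cadmium (chromosome 3, 135825279 to 135888572), and its Steap4AKO libraries went in opposite directions. It had 193.0, 149.1, 128.9 and 152.8 in Steap4f/f, 808.3 in Steap4AKO replicate 2 and 89.5 in replicate 3. Replicate 2 was above and replicate 3 below every control. The log2 difference was 0.80 (SE 0.73, limma adjusted p = 0.587). With replicate 2 as the single Steap4AKO library it was 2.38 (limma adjusted p = 0.0244), and with replicate 3 alone it was -0.78 (limma adjusted p = 0.566). Each of these fits assumes that the lone library varies like the controls, and adjusted p-values over all 18 alternatives ran from 0.0244 to 0.692. The 5 macrophage markers were all highest in Steap4AKO replicate 2, with Adgre1 at 1750 against 159.6 to 374.6 in the other libraries and Cd68 at 2653 against 361.6 to 663.6. The mesothelial gene Upk3b was 781 there and the epithelial gene Epcam 412 (Upk3b at most 167.1 and Epcam at most 2.4 in the other 5 libraries). The part of these cells in the Slc39a8 value was not tested.

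Slc39a13 encodes ZIP13, an importer of intracellular vesicles whose loss in mice promotes beige adipocytes (chromosome 2, 91061791 to 91070417). It was the member with both Steap4AKO libraries below the controls. It had 941.0, 947.9, 1112 and 1140 in the controls and 755.5 and 905.0 in Steap4AKO. The mean was 1.25-fold lower, 830.3 ± 105.7 (SD, n = 2) against 1035 ± 105.5 (SD, n = 4), and did not pass (log2 difference -0.32, SE 0.16, limma adjusted p = 0.324). Its transcripts overlap those of Psmc3 on the opposite strand over 148 bases. Psmc3, a proteasome subunit, had 1993 and 2191 in Steap4AKO and 2228 to 2781 in Steap4f/f.

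Both exporters had slightly higher means in Steap4AKO and did not pass. Slc30a1, the plasma membrane exporter ZnT1 and an MTF1 target (chromosome 1, 191906767 to 191913247), had 625.3, 466.9, 492.1 and 437.6 in the controls and 672.7 and 584.6 in Steap4AKO. Steap4f/f replicate 1, the library with the highest metallothioneins, lay between the Steap4AKO values, and the other 3 controls lay below both. The log2 difference was 0.32 (SE 0.19, limma adjusted p = 0.398). Slc30a4, which encodes ZnT4, a transporter that loads zinc into vesicles and is mutated in lethal milk mice (chromosome 2, 122681233 to 122702663), had 565.0, 517.5, 482.1 and 538.1 in Steap4f/f. Its Steap4AKO values were 611.3 and 582.1, above all controls by a small margin, with a 1.14-fold higher mean (log2 difference 0.18, SE 0.15, limma adjusted p = 0.535).

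Levels of different members were compared per kilobase of their principal transcript. In Steap4f/f the mean normalized count per kilobase was 4317 for Mt1, 2888 for Mt2, 1065 for Slc39a1 and 419.3 for Slc39a13. Then came Slc39a10 at 100.03, Slc30a1 at 96.4, Slc30a4 at 96.3, Slc39a14 at 67.6, Slc39a8 at 44.1 and Mtf1 at 35.8. Neighbours whose library ranges overlapped were Mt1 with Mt2, Mt2 with Slc39a1, the trio of Slc39a10, Slc30a1 and Slc30a4, and Slc39a8 with Mtf1. Mt2 ran from 569.6 to 9165 per kilobase across the control libraries, and Slc39a1 from 1019 to 1094. These ranges do not use the fact that all members were measured in the same libraries. Slc39a13 (381.1 to 461.7 per kilobase) and Slc39a14 (60.9 to 75.4 per kilobase) overlapped no neighbour. The order depends on the length used. Over the union of all annotated exons Mt2 (2510 per kilobase) came before Mt1 (1902), and Slc30a1 (96.4) and Slc30a4 (95.9) before Slc39a10 (90.2). There Slc39a13 had 212.6 per kilobase, and Slc39a14 (31.6), Mtf1 (30.6) and Slc39a8 (20.3) were lowest. The library ranges of Slc39a14 and Mtf1 overlapped on that scale, so the separate place of Slc39a14 holds for the principal transcript only.

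**Figure D3:**
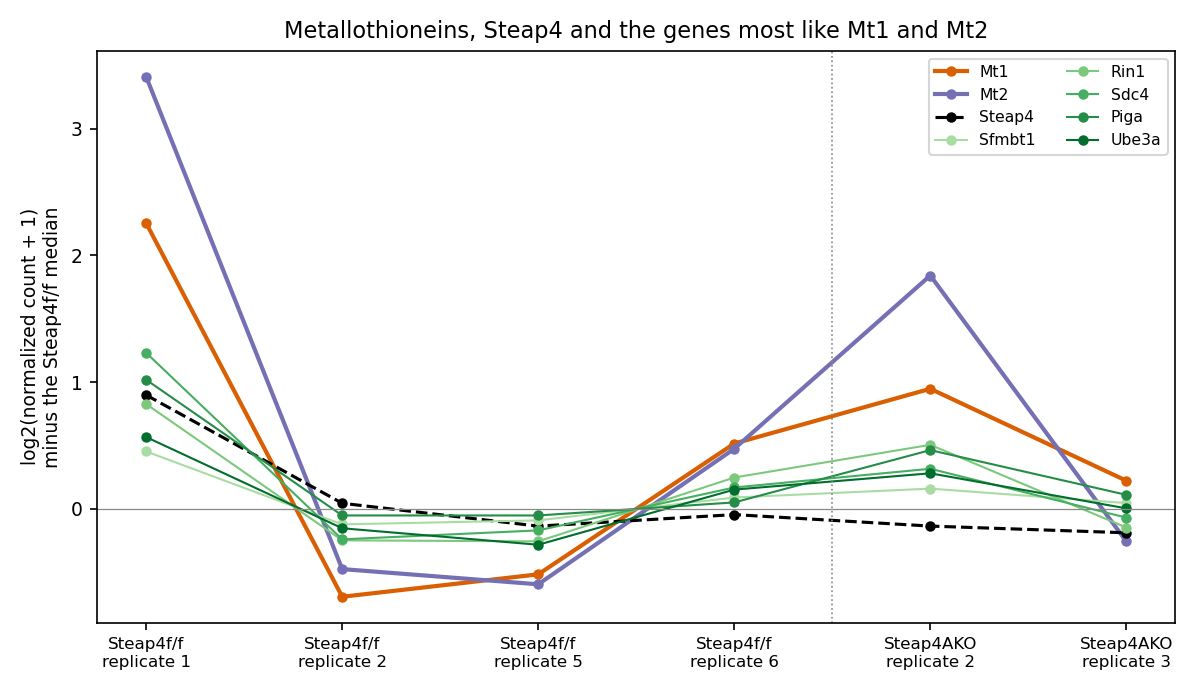
Deviation of log2(normalized count + 1) from the Steap4f/f median in each library for Mt1, Mt2, Steap4 and the 5 genes most like the mean of Mt1 and Mt2; the dotted line separates the genotypes. In Steap4f/f replicate 1 Mt1 is 2.25, Mt2 3.41 and Steap4 0.90 above the median, and Steap4 is not raised in Steap4AKO replicate 2 (-0.14).

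The genes most like the mean log2 value of Mt1 and Mt2 across the 6 libraries were Sfmbt1 (Pearson r = 0.984), Rin1 (0.981), Sdc4 (0.976), Piga (0.974) and Ube3a (0.974). With 6 libraries, of which 1 is far above the rest, these values may rest largely on that library. They describe likeness across these libraries and no more. Sdc4, the cell surface proteoglycan syndecan-4, had 1394, 502.2, 527.5 and 667.2 in the controls and 739.2 and 565.7 in Steap4AKO. For Slc39a14 the most alike were Rap1b (r = 0.995), Aqp9 (0.994), Cfap43 (0.990), Socs5 (0.989) and Mtf2 (0.989). All 5, like Slc39a14 itself, were highest in Steap4AKO replicate 2, so the same limit holds. Aqp9, a glycerol channel, had 16.6, 6.0, 5.9 and 14.7 in the controls and 273.2 and 26.8 in Steap4AKO. It reached the minimum mean of 50 through Steap4AKO replicate 2, and its peak there follows from the choice by likeness.

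Of 21 further zinc genes 14 were in the table and 13 were tested, 9 with positive and 4 with negative log2 differences (median 0.13), and none had a limma adjusted p under 0.05, while 3 had an unadjusted p under 0.05, against 18.1% of all genes tested. Slc39a2, encoding the importer ZIP2, had 31.1, 39.1, 43.8 and 36.8 in the controls and 5.7 and 13.8 in Steap4AKO, a 3.87-fold lower mean (log2 difference -1.95, SE 0.54, limma adjusted p = 0.144). Slc39a11, encoding ZIP11, had 378.1, 293.1, 394.1 and 292.3 against 507.3 and 512.3, a 1.5-fold higher mean (limma adjusted p = 0.187). Slc39a6, encoding ZIP6, had 260.6, 189.4, 212.8 and 236.0 against 359.4 and 292.0, a 1.45-fold higher mean (limma adjusted p = 0.251). In 3 of the 13 both Steap4AKO libraries lay above every control (background 14.1%), Slc39a11, Slc39a6 and Slc30a5, and in 2 both lay below (background 14.4%), Slc39a2 and Slc30a7, with Slc30a5 and Slc30a7 named after their values were seen. Slc39a4, the intestinal zinc importer ZIP4, and Slc30a3, the exporter of synaptic vesicles, are named after their values were seen. Slc39a4 had 64.2 and Slc30a3 41.1 in Steap4AKO replicate 2, and in the other 5 libraries Slc39a4 had at most 2.1 and Slc30a3 was listed at 0. Mt3, the metallothionein of brain, had 70.5 there and 5.2 to 24.1 elsewhere.

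**Figure D4:**
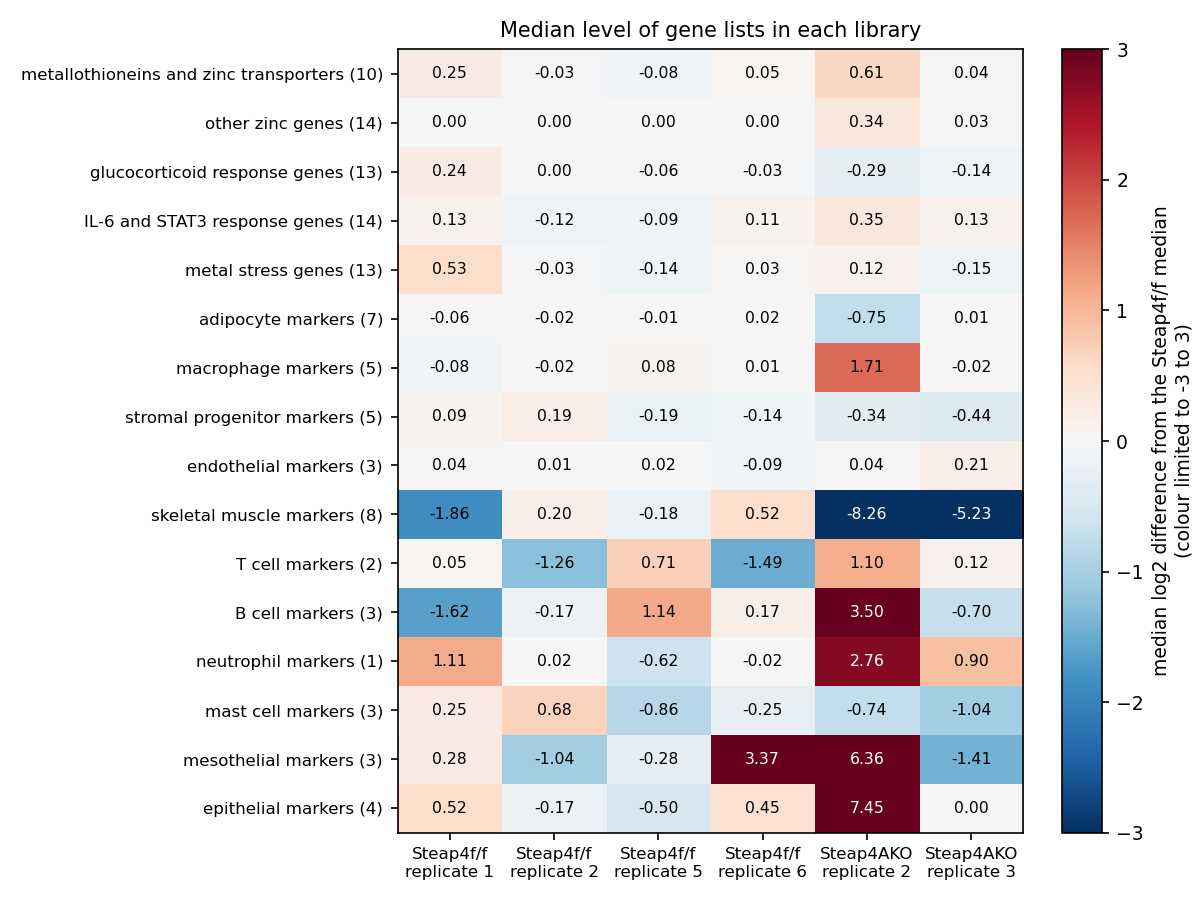
Median, over the genes of each list, of the log2 difference from the Steap4f/f median in each library, with the number of genes in parentheses and colours limited to -3 to 3. The 10 metallothionein and zinc transporter genes are highest in Steap4AKO replicate 2 (0.61), the library with the highest macrophage (1.71) and epithelial (7.45) markers, and metal stress genes are highest in Steap4f/f replicate 1 (0.53).

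Genes that carry or respond to signals known to raise metallothioneins were described beside them. The lists include receptors and regulators, such as Nr3c1, Il6ra and Hsf1, so their counts and medians do not measure a response alone. None of 13 glucocorticoid response genes, 14 genes of the interleukin-6 and STAT3 response or 13 metal stress genes had a limma adjusted p under 0.05, and 4, 4 and 1 had an unadjusted p under 0.05, against 18.1% of all genes tested. Their median log2 differences were -0.20, 0.18 and -0.01. Pdk4, a kinase that restrains pyruvate oxidation, had 3635, 4171, 5063 and 12469 in the controls and 1822 and 1709 in Steap4AKO (limma adjusted p = 0.135). Hsd11b1, which regenerates active glucocorticoid, had 4700, 2670, 2967 and 3171 in the controls and 1534 and 2329 in Steap4AKO, a 1.75-fold lower mean (limma adjusted p = 0.183). Dusp1, a phosphatase of MAP kinases, was 1.60-fold higher in the mean, with 1099 and 1831 in Steap4AKO against 842.1 to 1065 (limma adjusted p = 0.196). Without Steap4f/f replicate 1 and Steap4AKO replicate 2, a setting chosen after seeing the data, Dusp1 and Per1 passed, with adjusted p-values of 0.0325 and 0.0378 in limma and 1 Steap4AKO library left.

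In the interleukin-6 group, Il6ra, a subunit of the interleukin-6 receptor, was 1.5-fold higher in the mean, with 968.6 and 1055 in Steap4AKO against 585.4 to 811.1 in Steap4f/f (limma adjusted p = 0.159). Stat3, the transcription factor downstream of it, had 3663 and 3559 in Steap4AKO against 2268 to 3043 (limma adjusted p = 0.201). Saa3, an acute phase protein, had 133.8 and 35.7 in Steap4AKO against 4.3 to 15.3 (limma adjusted p = 0.153). Cebpb, a transcription factor named after its values were seen, went the other way, with 1889 and 2119 in Steap4AKO against 2411 to 3505 in the controls (limma adjusted p = 0.206). Of the metal stress genes, Hsf1, the heat shock transcription factor, had 401.4 and 331.7 in Steap4AKO and 442.6 to 560.4 in Steap4f/f (limma adjusted p = 0.25), and Gclc and Hsph1 overlapped between genotypes.

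Steap4f/f replicate 1 stood out in the metal stress and glucocorticoid response genes. It was the highest of the 6 libraries in 9 of 13 metal stress genes (69.2%) and 7 of 13 glucocorticoid response genes (53.8%), against 21.3% of all genes tested. In the interleukin-6 group it was highest in 4 of 14 genes (28.6%). The 9 metal stress genes were the heat shock genes Hspa1a, Hspa1b, Hsph1, Dnaja1, Dnajb1 and Hsf1, with Hmox1, Gclm and Nfe2l2. In Steap4f/f replicate 1, Gclc, Nqo1, Txnrd1 and Srxn1 were not highest. They lay -0.10, -0.02, 0.05 and 0.33 from the control median in log2. Socs3, the feedback inhibitor of STAT3 signalling named here after its values were seen, had 821.1 in this library and 130.9 to 166.5 in the other 5. Likewise Fkbp5, a glucocorticoid induced chaperone, had 3813 there and 850.3 to 1765 elsewhere, and Cebpd 759.1 against 263.4 to 326.7. Other glucocorticoid response genes did not follow. Pdk4 had its lowest control value there (3635), and Per1 and Ddit4 were 0 and -0.18 from the control median in log2. The list medians in this library were 0.24 for glucocorticoid response genes, 0.13 for the interleukin-6 group and 0.53 for metal stress genes. Steap4AKO replicate 2 was the highest library in 7 of the 10 metallothionein and zinc transporter genes (70%), against 27% of all genes tested. Whether stress, glucocorticoid or cell content takes part in the metallothionein levels of these libraries was not tested.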

How the data were processed

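RNA from iWAT was sequenced in 6 libraries. The deposited table, per its name, holds the authors' DESeq2 normalized counts per gene, a signal without whole reads: at the best step 51.7 to 59.2% of values under 15 lay within 0.1 of a whole read, so no count test was run, no counting interval was computed and low values are the least precise. The submitters' processing notes name RSEM 1.3.3, STAR 2.7.0e, DESeq2 1.12.4 and R 4.2.0, with builds GRCm38 and mm10 and no role for any tool. Estimated counts, as RSEM gives, can divide reads between copies and overlapping genes.

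Symbols came from GENCODE M21 (GRCm38) for 15125 of 15176 genes. The limma package 3.58.1 (R 4.3.3) compared log2(value + 1) (variance trend, 2 groups, no covariate), for 15006 genes with a mean of at least 10. P-values were adjusted over all of them by the Benjamini-Hochberg method, all tests are two-sided and the threshold is 0.05. Folds are ratios of group means. The fitting was tested on simulated data. Lengths are those of the principal transcript, and copies were sought with blastn 2.17.0 (at least 90% identity over 100 bases). Figures were drawn with matplotlib 3.10.9 in Python 3.11.15.

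The members and lists were chosen with earlier results of these data known. All 10 members are named, with the 3 genes of smallest p in each other list and the 5 genes most alike by Pearson correlation among named genes with a mean of at least 50. Other genes were named after their values were seen. Alternatives were other pseudocounts, filters, scalings and variance models, a muscle covariate and each library left out. The joint omission of 2 libraries was added after seeing the data.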

Additional observations from a re-analysis of the deposited data

Results flagged for a closer look

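In 3 of 11 genes examined, 1 control library lay far from the other 3, by the gap between it and its nearest neighbour divided by the range of the group (Dixon's test). Chance puts about 5% of groups of normally distributed values past its critical value. The gap was taken on normalized counts without the log, where high values lie further out. It was not computed on log2 values or over all genes. All 3 were high values of Steap4f/f replicate 1, so they are not independent of each other. Mt2 had 4683.2 there and at most 611.8 in the other controls (0.927 of the range). Slc39a10 had 649.5 against at most 522.2 (0.915 of the range). Steap4 had 17017.9 against at most 9417 (0.873 of the range). Mt1, with 6016 in the same library, reached 0.805 of the range and stayed under that value.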

How the results depend on the processing

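With 2 Steap4AKO libraries, of which 1 stood apart, no member passed in the 6-library fit or in 17 of the 18 alternatives. Without Steap4AKO replicate 3, 1 member (Slc39a8) and 2 other zinc genes (Slc39a4 and Slc39a2) passed. Over all genes, 71 passed in the 6-library fit. This count was 1 with a pseudocount of 0.5, a minimum mean of 50, a robust prior or the muscle covariate. With no variance trend it was 13 and with array weights 119. With single libraries left out it ran from 1 to 821. Leaving out single libraries took the members' median from -0.12 to 0.49, the members without overlap from 4 to 8, members past the threshold from 0 to 1 and other zinc genes past it from 0 to 2. Members without overlap numbered 7 without Steap4AKO replicate 2 and 8 without Steap4AKO replicate 3, against 4 or 5 without 1 control. A lone library falls outside the controls by chance more often than 2 libraries both fall on the same side. Whether genotype takes part in this rise was not tested. The zinc genes that passed did so without Steap4AKO replicate 3, where passing genes over all genes were also most numerous. Without the pair of libraries, 8 members did not overlap, again with 1 Steap4AKO library left. No share over all genes is given for these omissions. Rescaling to the same sum moved the median of all genes to 0.21 and that of the members to 0.37. The sign of Slc39a1 turned there (0.18), with the upper quartile (0.01) and with quantile normalization (0.06).

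With single libraries left out, Mt1 ran from -0.17 to 0.82, Mt2 from -0.96 to 1.14, Slc39a1 from -0.09 to 0.08, Slc39a10 from -0.14 to 0.42 and Slc39a8 from -0.78 to 2.38. Without the pair of libraries Mt2 was -0.06, Slc39a10 -0.06 and Slc39a8 -0.67. The muscle covariate correlated with genotype at -0.94, which leaves little to tell the 2 apart. With it the median was -0.47, and Mt1 (-3.48), Mt2 (-6.63), Slc39a10 (-0.97), Slc39a14 (-0.45), Slc39a8 (-3.58), Slc39a13 (0.21), Slc30a1 (-0.49) and Slc30a4 (-0.03) changed sign, none past the threshold. Mtf1 had a positive difference, and Steap4 a negative one, in all 18 alternatives, with adjusted p from 0.0927 to 0.772 and from 0.483 to 0.821 in limma. The cause of these changes was not tested. Tests on whole reads were not run. No paired analysis was possible because the genotypes share 1 replicate number.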
